A study of Mus musculus with 6 samples.

Results

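The immediate early and stress response genes are 38 genes taken by name from a list, out of 18194 genes that the arrays measured with a probe set annotated to a single symbol. All 38 were measured, with 69 probe sets between them: 22 genes had 1 probe set and 16 had more. Each gene was read from its probe set with the highest mean over all arrays, and the other probe sets were kept as a check. Levels are log2 of the deposited values, and a change is a difference of group means in log2, so that 1 is a doubling. The study set sorted bone marrow cells of adult E2A-KO mice against wild-type cells. It had 6 arrays in 3 groups of 2. The wild-type groups, from C57bl/6 mice, were LMPP, marrow progenitors without lineage markers that carry SCA1, KIT and much surface FLT3, and LSK FLT3-, which share this gate but lack surface FLT3 and hold the stem cells. The third group was LMPP from E2A-KO mice of C57bl/6 background, sorted through the same gate as the wild-type LMPP. The targeted allele, the sex, the exact age and any pooling of mice are not given in the sources used here.

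Immediate early genes are switched on within minutes of a signal, without new protein synthesis, mostly through ERK and p38 kinases acting on SRF with its ELK partners and on CREB. Their products are transcription factors (FOS, JUN, EGR, NR4A and KLF proteins), phosphatases that switch the kinases off again (DUSP) and inhibitors that close NF-kB and cytokine signalling (NFKBIA, TNFAIP3, SOCS3). Several are linked to the quiescence of blood stem cells, and many are known to be induced by tissue dissociation and sorting. Stress genes such as the inducible HSP70 pair and the GADD45 genes answer heat, misfolded protein and DNA damage. E2A, encoded by Tcf3, is a basic helix-loop-helix factor that binds E-boxes and is needed for B lymphoid development.

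The labels do not say whether replicate arrays hold RNA of different mice. The p-values therefore reflect the spread among these particular arrays, and that spread may be technical. A free-text label calls every sample wild-type LMPP; titles and source names, which differ between samples, set the groups. The array medians over all probe sets lay between 3.90 and 4.04, and values near or below that lie in the compressed low range; 4 to 8 of the 38 genes were below the median on any one array. The LSK FLT3- arrays stood apart, with upper quartiles of 6.13 and 6.15 against 5.78 to 5.82 for LMPP. Of 5 genes of the sort gate, 4 were measured (Kit, Flt3, Cd34 and Ptprc) and all were above the median on every array. Flt3 was 10.80 and 10.80 in wild-type LMPP, 10.70 and 10.76 in E2A-KO LMPP, and 8.87 and 8.76 in LSK FLT3- cells. Tcf3 itself read 6.93 and 6.86 in wild-type and 6.80 and 6.53 in E2A-KO LMPP; where its probe set lies against the targeted part is not given, so it checks no label. These are sorted populations measured in bulk, in which fewer cells of a type and less RNA per cell cannot be told apart. The summed linear level of 12 mature neutrophil and monocyte genes was 3395 and 3355 in wild-type LMPP, 969 and 917 in E2A-KO LMPP, and 2214 and 2136 in LSK FLT3- cells. Of these 12 marker genes, 7 fell between wild-type and E2A-KO LMPP, and Itgam was below the array median everywhere, for instance 2.81 and 2.64 in wild-type and 2.87 and 2.66 in E2A-KO LMPP.

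The upstream sequences of the 4 genes that fell in E2A-KO LMPP are shown because E2A binds E-boxes. Each is the 250 bases before the annotated start, from RefSeq on GRCm38.p6, minus strand, written in the direction of transcription: Klf4 at chr4:55532476-55532725, Rhob at chr12:8500010-8500259, Tnfaip3 at chr10:19015411-19015660 (the farther upstream of 2 annotated starts) and Hspa1b at chr17:34959239-34959488. Capitals mark every match to a motif searched. Of the E-boxes only CAGGTG and CAGCTG were searched, so E-boxes with other middle bases, as in the Klf4 and Tnfaip3 windows, stay in lower case.
Klf4: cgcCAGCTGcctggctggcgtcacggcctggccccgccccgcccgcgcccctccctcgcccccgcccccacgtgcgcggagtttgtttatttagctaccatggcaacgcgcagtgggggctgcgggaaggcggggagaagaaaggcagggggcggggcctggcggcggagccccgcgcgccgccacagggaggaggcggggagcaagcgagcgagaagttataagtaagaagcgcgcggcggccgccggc
Rhob: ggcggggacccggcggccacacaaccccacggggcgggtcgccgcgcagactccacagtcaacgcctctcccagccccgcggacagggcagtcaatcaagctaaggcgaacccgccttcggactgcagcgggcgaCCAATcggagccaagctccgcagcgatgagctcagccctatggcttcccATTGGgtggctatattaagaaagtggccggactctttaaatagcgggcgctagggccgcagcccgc
Tnfaip3: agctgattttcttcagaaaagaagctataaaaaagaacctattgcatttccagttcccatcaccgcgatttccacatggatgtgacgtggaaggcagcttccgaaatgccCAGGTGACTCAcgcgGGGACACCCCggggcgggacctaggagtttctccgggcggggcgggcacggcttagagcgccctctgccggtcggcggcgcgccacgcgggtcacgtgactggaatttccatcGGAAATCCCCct
Hspa1b: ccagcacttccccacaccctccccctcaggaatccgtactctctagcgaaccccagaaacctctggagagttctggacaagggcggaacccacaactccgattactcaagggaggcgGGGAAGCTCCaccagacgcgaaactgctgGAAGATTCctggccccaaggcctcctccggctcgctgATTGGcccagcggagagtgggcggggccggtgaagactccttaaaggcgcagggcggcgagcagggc

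In the Klf4 window the capitals are an E-box, CAGCTG, at -247 to -242 from the start. In the Rhob window they are a pair of CCAAT boxes, at -115 and, on the other strand, at -66. The Tnfaip3 window holds an E-box, CAGGTG, from -140, which shares 2 bases with an AP-1 site, TGACTCA, from -136, and NF-kB sites from -125 and from -12. The Hspa1b window holds an NF-kB match from -133, a heat shock element, GAAGATTC, from -104, and an inverted CCAAT box from -67. The windows of Hspa1b and its neighbouring copy Hspa1a differ at 3 of 250 bases.

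Motifs were searched on both strands of the same 250 bases in 33 of the 38 genes that had an entry, and in 27025 genes in all, counting a gene once if any of its annotated starts had a match. RefSeq entries were not used for Egr1, Egr3, Klf10, Ier2 and Myc. The E-box CAGGTG was in 3 of the 33 genes (9.09%) against 19.4% of all genes, and CAGCTG in 6 (18.2%) against 14.7%. The CRE, TGACGTCA, was in 4 (Btg2, Dusp1, Maff and Ppp1r15a; 12.1%) against 1.77%. The NF-kB site was in 9 (27.3%) against 8.23%, and the CArG box bound by SRF in 3 (Dusp5, Egr2 and Zfp36; 9.09%) against 1.62%. The AP-1 site TGANTCA was in 2 (6.06%) against 7.82%, the heat shock element GAANNTTC in 4 (12.1%) against 7.73%, and CCAAT in 16 (48.5%) against 37.5%. A match is a run of letters, not evidence of binding, and the median GC content was 62.4% in the windows of these genes against 52.4% over all windows. No test was made of these shares.

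The first comparison, the stated aim of the study, was E2A-KO against wild-type LMPP. Rhob, Klf4, Tnfaip3 and Hspa1b fell in E2A-KO LMPP, by between 1.83-fold and 2.50-fold, and none of the 38 genes rose. The 4 genes are 10.5% of the 38, where 0.995% of all genes fell; 0.379% of all genes rose. Limma fitted all 6 arrays together, with p-values adjusted by Benjamini-Hochberg over the 18194 genes and a threshold of 0.05, and at an unadjusted p under 0.05 12 of the genes were lower and 1, Ier3, higher, where 8.76% of all genes were lower and 5.89% higher. The median change of the 38 genes was -0.17 against -0.02 over all genes, and 25 of the changes (65.8%) were below 0 against 52.8% of all genes. Both E2A-KO arrays were below both wild-type arrays for 16 genes (42.1%), where 22.8% of all genes had this order, and above both for 3 (Egr2, Nr4a2 and Ier3; 7.89%) against 18.8%.

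**Figure D1:**
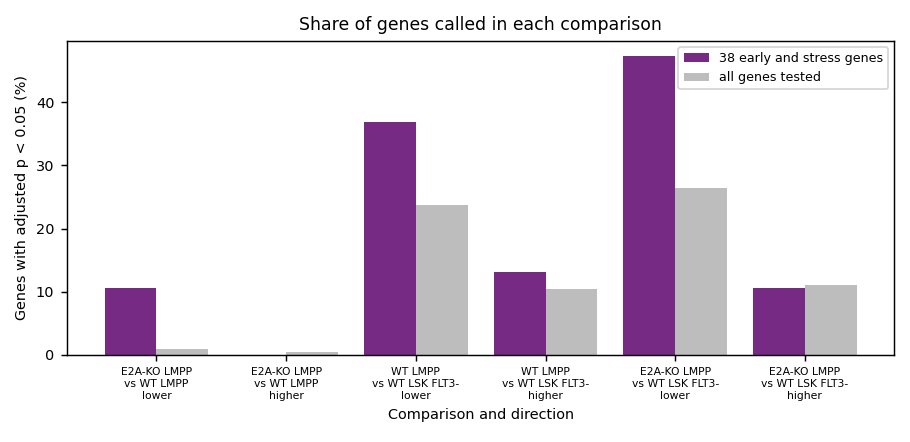
Bars give the percentage of genes with an adjusted p under 0.05 (vertical axis, percent) in each comparison and direction, for the 38 early and stress genes and for all 18194 genes tested. Against wild-type LMPP, 10.5% of the 38 genes were lower in E2A-KO LMPP beside 0.995% of all genes; the bars for higher genes are 0 and 0.379%.

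Rhob encodes a small GTPase that is itself an immediate early gene and acts in actin and vesicle traffic. Its level was 7.87 and 7.89 in wild-type LMPP, 6.50 and 6.61 in E2A-KO LMPP, and 7.19 and 7.32 in LSK FLT3- cells. The 3 groups did not overlap, with wild-type LMPP highest and E2A-KO LMPP lowest. The change in E2A-KO LMPP was -1.32 (SE 0.13, limma adjusted p = 0.00176), a 2.50-fold lower level. It passed the threshold in all 13 alternative analyses, with changes from -1.37 to -1.25 and adjusted p of at most 0.0245.

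Tnfaip3 encodes A20, a ubiquitin-editing enzyme that shuts off NF-kB signalling and is itself induced by NF-kB. Its level was 6.97 and 7.05 in LSK FLT3- cells, 6.32 and 6.41 in wild-type LMPP, and 5.34 and 5.29 in E2A-KO LMPP. The groups did not overlap, and the level was lowest in E2A-KO LMPP. Tnfaip3 fell in E2A-KO LMPP by 1.05 (SE 0.13, limma adjusted p = 0.00541), or 2.07-fold. A second probe set lay near the array median on every array, at 3.78 to 4.33, with a change of 0.15 that did not pass; with the mean of both probe sets the change was -0.45 (limma adjusted p = 0.140). Nfkbia, the cytoplasmic inhibitor of NF-kB and another of its targets, changed by -0.22 (limma adjusted p = 0.450) and so did not pass. Each of its 5 probe sets had both E2A-KO arrays below both wild-type arrays, an order that 22.8% of all genes had. Their changes were -0.22, -0.55, -0.60, -0.61 and -0.45, none of which passed over all probe sets. The 5 probe sets read 1 gene on the same arrays, so they are not independent. Socs3, the feedback inhibitor of STAT3 signalling, changed by -0.34 and did not pass either.

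Klf4, a zinc finger factor of monocyte differentiation and of quiescence, was 5.26 and 5.45 in wild-type LMPP, 3.93 and 4.53 in E2A-KO LMPP, and 4.59 and 4.33 in LSK FLT3- cells. Wild-type LMPP stood above the other groups, which overlapped each other. The change in E2A-KO LMPP was -1.13 (SE 0.20, limma adjusted p = 0.0343), or 2.18-fold lower. E2A-KO replicate 1, at 3.93, was below its array median of 4.04, so the size of this fold change is uncertain. The call was lost with only the 4 LMPP arrays fitted, without either wild-type LMPP array, without E2A-KO replicate 1 and without either LSK FLT3- array. It was lost also with the mean of both probe sets, the second of which changed by 0.12. Over the 13 alternatives the change ran from -1.43 to -0.51. Among the other KLF factors Klf6 changed by -0.44, Klf2 by -0.25 and Klf10 by -0.05, none of them past the threshold.

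**Figure D2:**
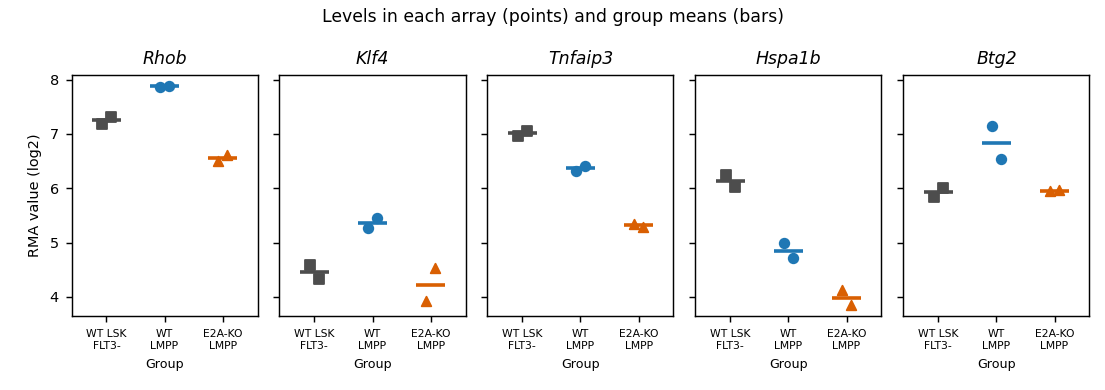
Each panel plots 1 gene, with the log2 RMA value on the vertical axis and the group on the horizontal axis; points are arrays and bars are group means. Rhob, Klf4 and Btg2 were highest in wild-type LMPP, while Tnfaip3 and Hspa1b stepped down from LSK FLT3- cells to wild-type LMPP and again to E2A-KO LMPP.

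Hspa1b encodes inducible HSP70, the chaperone raised by heat and misfolded protein. Its level was 6.24 and 6.03 in LSK FLT3- cells, 4.99 and 4.71 in wild-type LMPP, and 4.12 and 3.84 in E2A-KO LMPP, the last near the array median. The groups did not overlap. Hspa1b fell in E2A-KO LMPP by 0.87 (SE 0.16, limma adjusted p = 0.0407), or 1.83-fold. This call was lost with only the 4 LMPP arrays fitted and whichever of the 6 arrays was left out. Over the 13 alternatives the change ran from -1.01 to -0.66. When all probe sets were tested, where 0.561% were lower, this probe set did not pass (limma adjusted p = 0.0529). Another one passed with a change of -0.83 (limma adjusted p = 0.0366), and the last, with -0.29, did not. Both of these others were below the array medians on all LMPP arrays. The one that passed had means of 3.72 in wild-type and 2.90 in E2A-KO LMPP. Hspa1a codes for nearly the same protein, so probes may be shared between the copies and the split between them is uncertain. Hspa1a was in the low range on all arrays, at 3.13 to 3.71, and changed by 0.11 between the genotypes. Of 17 other heat shock factors and chaperones measured, 0 passed in either direction by limma, where 0.995% of all genes were lower and 0.379% higher. At an unadjusted p under 0.05, 4 of the 17 were lower and 0 higher, where 8.76% of all genes were lower and 5.89% higher.

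Btg2, an antiproliferative factor that recruits the mRNA deadenylase and a p53 target, was 7.14 and 6.54 in wild-type LMPP, 5.94 and 5.97 in E2A-KO LMPP, and 5.83 and 6.01 in LSK FLT3- cells. Wild-type LMPP arrays were above all others but 0.60 apart. The change of -0.88 (SE 0.19, limma adjusted p = 0.0716) missed the threshold, which it passed without wild-type LMPP replicate 2 (adjusted p = 0.0204), with the mean of both probe sets (0.0411) and with a variance trend (0.0175). Its relative Btg1 changed by -0.51 and the mRNA decay factor Zfp36 by -0.03, and neither passed.

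Among the AP-1 factors, 0 of 7 passed by limma, where 0.995% of all genes were lower and 0.379% higher. At an unadjusted p under 0.05, 2 of the 7 were lower, where 8.76% of all genes were lower. Jund, the JUN protein that restrains proliferation, was 7.87 and 8.17 in wild-type and 7.26 and 7.35 in E2A-KO LMPP, without overlap, and changed by -0.72 (SE 0.15, limma adjusted p = 0.0622). A second Jund probe set, in the low range, changed by 0.36 and did not pass. Jun changed by -0.39 and Fos by -0.34 without passing, and Fosb, Junb, Atf3 and Maff lay between -0.06 and 0.14. Jun, Fosb and Atf3 were below the array median on all or most arrays, so the arrays say little on them. Egr1, the EGR factor tied to stem cell quiescence, was 6.07 and 6.20 in wild-type and 5.64 and 5.50 in E2A-KO LMPP, which differed by -0.56 (SE 0.14, limma adjusted p = 0.0960). Egr2 and Egr3 changed by 0.11 and 0.29, and the orphan receptors Nr4a1 and Nr4a2 by 0.24 and 0.31, all short of the threshold. Egr2 was below the array median on every array, so the arrays say little on it either.

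The MAP kinase phosphatases gave 0 calls among 4 by limma, where 0.995% of all genes were lower and 0.379% higher. At an unadjusted p under 0.05, 1 of the 4, Dusp6, was lower, where 8.76% of all genes were lower. Dusp6, which inactivates ERK in the cytoplasm and is a readout of ERK signalling, was 7.33 and 7.62 in wild-type and 6.79 and 6.88 in E2A-KO LMPP. Its arrays did not overlap, and its change was -0.64 (SE 0.15, limma adjusted p = 0.0821). Dusp1, Dusp2 and Dusp5 changed by -0.09, -0.35 and -0.12. Of the remaining early genes, the early response genes Ier2 and Ier3 changed by 0.45 and 0.43, Ier5 and the nuclear factor Csrnp1 by -0.29 each, the kinase gene Sgk1 by 0.23 and the growth regulator Myc by 0.05. The damage response genes Gadd45a and Gadd45b changed by 0.12 and -0.42, and Ppp1r15a, whose product restores translation after stress, by -0.04. None of these 13 genes passed.

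Mature neutrophil and monocyte genes moved with these falls: their summed level was 969 and 917 in E2A-KO LMPP beside 3395 and 3355 in wild-type LMPP. Stromal genes, 8 in number, summed to 225 and 216 beside 340 and 360, a gap carried by 1 of them, Pdgfrb, which fell by 1.15; 4 of the 8 changes were above 0 and 4 below, with a median of -0.04. The part of either in the falls of Rhob, Klf4, Tnfaip3 and Hspa1b was not tested.

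**Figure D3:**
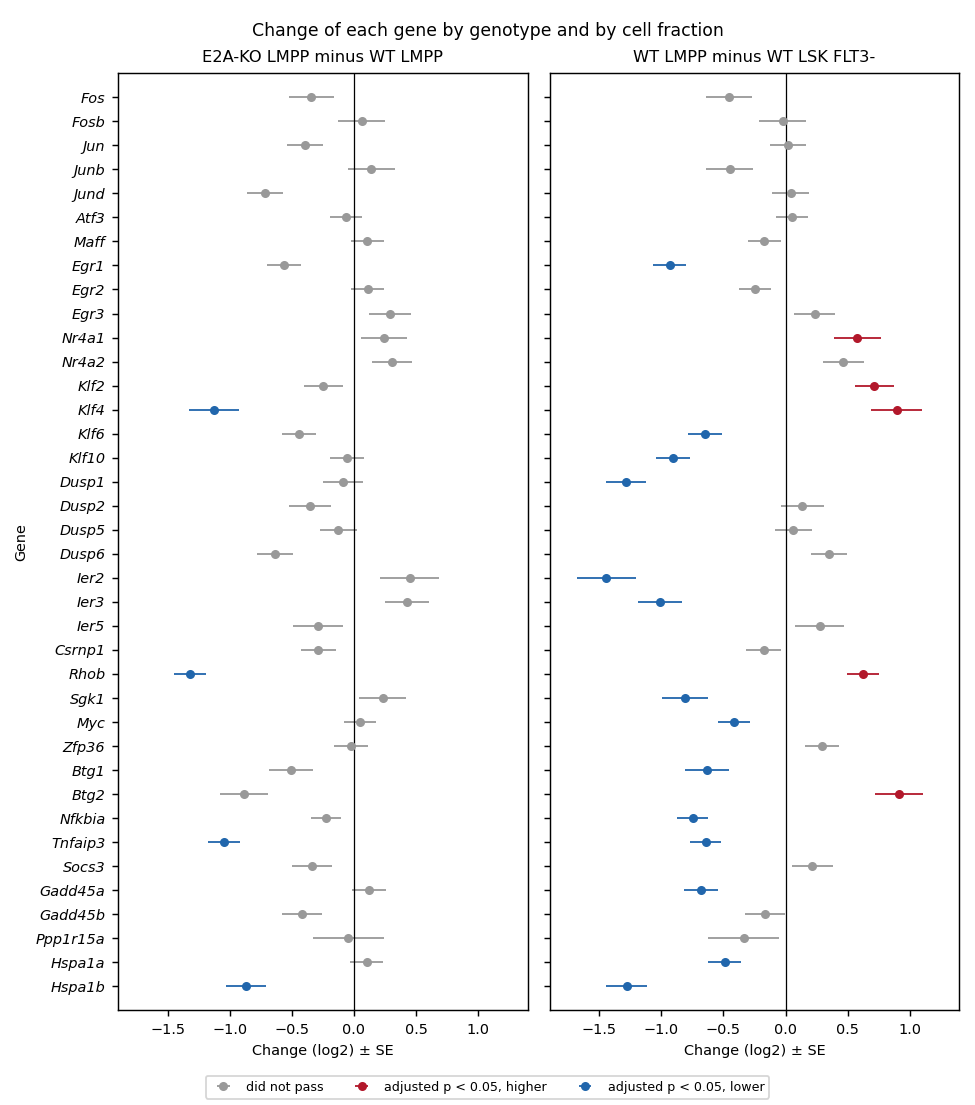
Each point is the change of 1 gene (horizontal axis, log2, with the SE as a bar) between E2A-KO and wild-type LMPP on the left and between wild-type LMPP and LSK FLT3- cells on the right; colour marks genes past the threshold. The left panel has 4 genes below 0 past the threshold and none above; the right panel has 14 below and 5 above.

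The second comparison set wild-type LMPP against LSK FLT3- cells, a step along differentiation from the stem cell fraction. Of the 38 genes, 14 were lower in LMPP (36.8%), where 23.7% of all genes were lower, and 5 were higher (13.2%), where 10.4% of all genes were higher. With quantile normalization of the arrays 10 were lower (26.3%) and 8 higher (21.1%), where 10.1% of all genes were lower and 9.10% higher. Of the called genes among the 38, 44.4% were then higher, up from 26.3%. Over all called genes that share went from 30.5% to 47.4%. Whether a single RMA run covered all 6 arrays is not stated in the sources used here, which bears on every change against LSK FLT3- cells. The median change was -0.17, against -0.01 over all genes. When the dimmest 40% of genes were left out, 31.6% of the called genes among the 38 were higher, against 20.4% over all called genes. Both LMPP arrays were below both LSK FLT3- arrays for 18 genes, where 39.3% of all genes had this order, and above both for 9, where 32.4% of all genes did. Without LSK FLT3- replicate 1 there were 9 lower and 1 higher, and without replicate 2 there were 8 lower and 2 higher.

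Ier2, Dusp1 and Hspa1b fell the most. Ier2 was 7.56 and 7.64 in LSK FLT3- cells and 5.83 and 6.49 in wild-type LMPP, a change of -1.44 (SE 0.24, limma adjusted p = 0.00258), or 2.72-fold. Dusp1, the nuclear phosphatase that ends p38 and JNK signalling, was 7.60 and 7.20 in LSK FLT3- cells and 6.20 and 6.03 in LMPP, a change of -1.28 (SE 0.16, limma adjusted p = 0.000798). Hspa1b changed by -1.28 as well (limma adjusted p = 0.000808), and all 3 of its probe sets passed, where 15.5% of all probe sets were lower. The Hspa1b probe sets not used for the level were below the array medians in LMPP. Its copy Hspa1a changed by -0.49 (limma adjusted p = 0.0216), from 3.71 and 3.60 to 3.13 and 3.20, all below the array medians, and lost this call without LMPP replicate 1 or either LSK FLT3- array.

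Egr1 fell from 6.99 and 7.14 in LSK FLT3- cells to 6.07 and 6.20 in LMPP, by 0.93 (SE 0.14, limma adjusted p = 0.00144). Ier3 fell by 1.01, from 6.97 and 7.28 to 6.03 and 6.19 (limma adjusted p = 0.00339). Klf10, a TGF-beta-induced zinc finger factor, fell by 0.91, from 8.47 and 8.38 to 7.40 and 7.64 (limma adjusted p = 0.00173). None of these genes overlapped between the groups. Klf6 fell by 0.65 (limma adjusted p = 0.00817), from 6.77 and 6.54 to 5.94 and 6.07; a second of its 5 probe sets fell by 0.56 (limma adjusted p = 0.0250 over all probe sets) and the other 3 did not pass. The Klf6 call was lost with quantile normalization (change -0.26), with the mean of the probe sets (-0.25) and without LSK FLT3- replicate 1.

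Both NF-kB inhibitors fell. Nfkbia was 11.38 and 11.38 in LSK FLT3- cells and 10.61 and 10.66 in LMPP, a change of -0.75 (SE 0.12, limma adjusted p = 0.00261). Of its 5 probe sets 3 passed, where 15.5% of all probe sets were lower. Tnfaip3 changed by -0.64 (SE 0.13, limma adjusted p = 0.00570), a call lost with quantile normalization (change -0.24), with the mean of both probe sets (-0.28) and without LSK FLT3- replicate 2. Of 17 other NF-kB factors, kinases and inhibitors measured, 4 fell (23.5%, beside 23.7% of all genes), led by Tnip2 (-0.70), Bcl3 (-0.60) and Traf2 (-0.57), and 0 rose, also at an unadjusted p under 0.05; with quantile normalization the single call was a rise.

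Sgk1 fell from 4.77 and 4.83 to 3.95 and 4.03, by 0.81 (SE 0.19, limma adjusted p = 0.0111). Its LMPP values lay near the array medians of 4.01 and 4.01, so the size of its fall is uncertain. Gadd45a fell from 5.59 and 5.55 to 4.80 and 4.98, by 0.68 (SE 0.14, limma adjusted p = 0.00633). Both calls were lost without either LSK FLT3- array (adjusted p of at most 0.0847 and 0.0628). Btg1 fell by 0.63 (limma adjusted p = 0.0249), a call lost with quantile normalization (change -0.35), the mean of probe sets (-0.42), or without either LSK FLT3- array or LMPP replicate 1. Myc, which drives growth and ribosome synthesis, fell by 0.41 (limma adjusted p = 0.0373). Myc read 8.84 and 8.70 in LSK FLT3- cells and 8.31 and 8.40 in LMPP, and its call was lost in 6 of the 13 alternatives, among them the removal of any 1 of these 4 arrays.

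The 5 genes that rose were Btg2, Klf4, Klf2, Rhob and Nr4a1. Btg2 rose by 0.91 (SE 0.19, limma adjusted p = 0.00779) and its second probe set by 0.61 (limma adjusted p = 0.0449 over all probe sets, of which 8.09% were higher). Klf4 rose by 0.89 (SE 0.20, limma adjusted p = 0.0106), and Rhob by 0.63 (SE 0.13, limma adjusted p = 0.00694). The call was lost without LSK FLT3- replicate 1 for Btg2 (adjusted p = 0.0764) and Rhob (0.0790), and without replicate 2 for Klf4 (0.0991).

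Klf2, the quiescence and trafficking factor of lymphocytes, rose from 4.06 and 4.20 in LSK FLT3- cells to 4.92 and 4.77 in LMPP, by 0.71 (SE 0.16, limma adjusted p = 0.00965). Nr4a1, an orphan nuclear receptor of antigen and stress signalling, rose from 5.73 and 5.67 to 6.25 and 6.31, by 0.58 (SE 0.19, limma adjusted p = 0.0410). Without either LSK FLT3- array neither call held, and that of Nr4a1 was lost also without either wild-type LMPP array and with median centring (adjusted p of at most 0.188). Nr4a2 differed by 0.47 and missed the threshold (limma adjusted p = 0.0541), and its 6 probe sets disagreed: another one changed by -1.17 (limma adjusted p = 0.0317 over all probe sets), from 5.77 and 5.23 to 4.33 and 4.34.

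Between the wild-type groups 23.7% of all genes were lower and 10.4% higher, and 28.9% were lower at an unadjusted p under 0.05. The other 19 of the 38 genes did not pass. They were all 7 AP-1 and ATF factors (0 passed by limma, 2 lower at an unadjusted p under 0.05; Fos -0.46, Junb -0.45, the others between -0.17 and 0.05), Egr2 and Egr3 (-0.25 and 0.23), Nr4a2, the phosphatases Dusp2, Dusp5 and Dusp6 (0.13, 0.06 and 0.35), Ier5 (0.27), Csrnp1 (-0.18), Zfp36 (0.29), Socs3 (0.22), Gadd45b (-0.17) and Ppp1r15a (-0.34). LSK FLT3- arrays of Ppp1r15a read 4.98 and 6.05, the widest gap between replicates of any of the 38 genes.

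**Figure D4:**
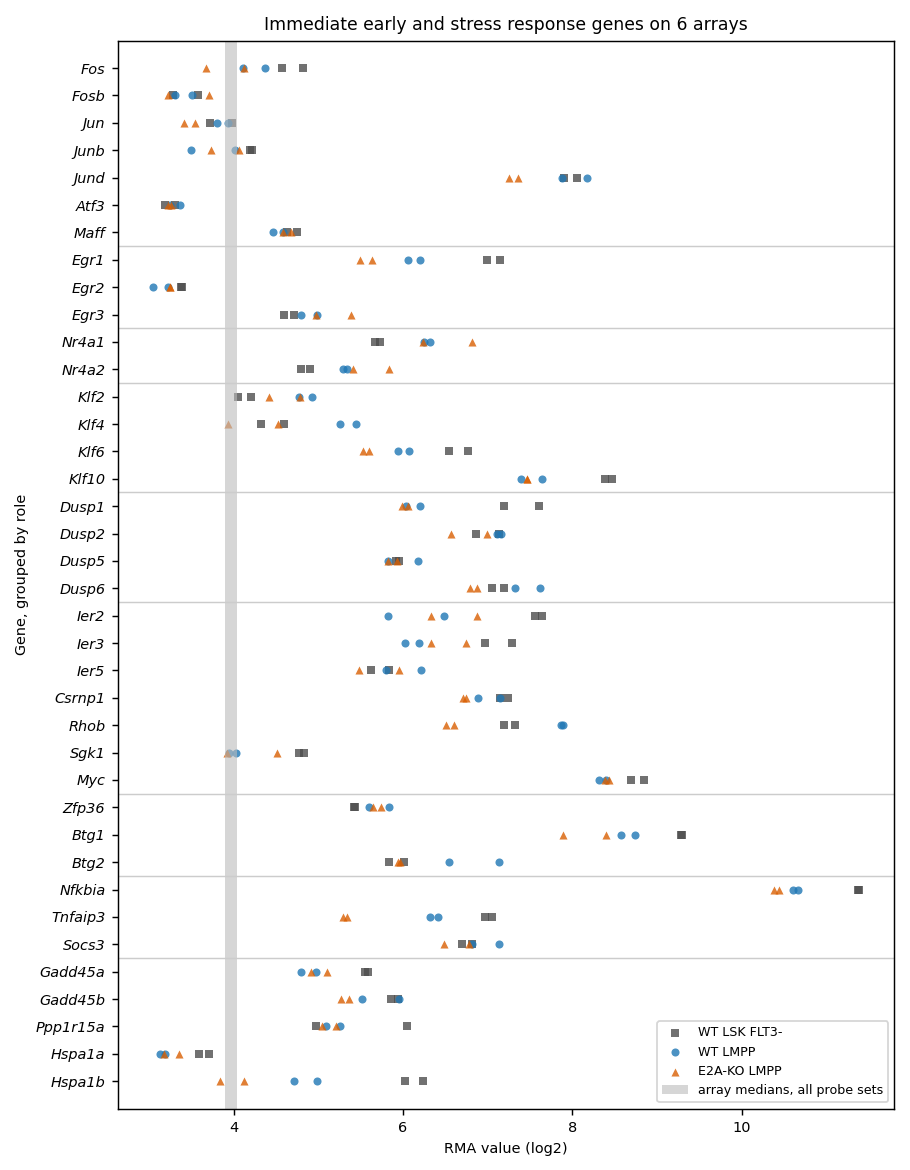
Points are the log2 RMA values (horizontal axis) of the 38 genes on each array, grouped by role, with symbols for the 3 groups; the grey band spans the array medians, 3.90 to 4.04. Dusp1, Ier2, Egr1 and Nfkbia stand highest in LSK FLT3- cells, and Rhob and Tnfaip3 lowest in E2A-KO LMPP.

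Genes of other cells moved in this comparison too. Summed B and plasma cell genes were 1338 and 1482 in LSK FLT3- cells and 137 and 141 in wild-type LMPP, over 7 measured genes. Igha (-5.79) and Jchain (-4.77), antibody genes of plasma cells, carried that sum and fell, while the B lineage genes Cd79a (0.72) and Ebf1 (0.81) rose, and the median change of the list was 0.01. Summed megakaryocyte and platelet genes, 6 in number, were 548 and 509 against 122 and 121, and 5 of the 6 fell. Red cell genes, 4 in number, summed to 197 and 186 against 83.6 and 86.1; Klf1 (-2.04) and Epor (-0.75) fell, Hba-a1 (0.73) and Alas2 (0.72) rose, and the median change was -0.02. Of the 12 neutrophil and monocyte genes, 6 rose in LMPP. Their part in the changes of the early genes was not tested.

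E2A-KO LMPP against LSK FLT3- cells used the same LSK FLT3- arrays, and the first comparison shared its E2A-KO arrays, so the 3 comparisons are not independent. Of the 38 genes 18 were lower (47.4%), where 26.5% of all genes were lower, and 4 were higher (10.5%), where 11% of all genes were higher. Both E2A-KO arrays were below both LSK FLT3- arrays for 23 genes, where 41.1% of all genes had this order, and above both for 5, where 32.9% of all genes did. The median change was -0.38 against -0.02. Of the called genes among the 38, 18.2% were higher, against 29.3% over all called genes. When the dimmest 40% of genes were left out, these shares were 18.2% and 18.7%. Quantile normalization left 11 of the 38 lower (28.9%) and 3 higher (7.89%), where 11.1% of all genes were lower and 8.76% higher. Without LSK FLT3- replicate 1 there were 12 lower and 0 higher, and without replicate 2 8 lower and 1 higher; without E2A-KO replicate 1 there were 12 lower and 3 higher.

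Hspa1b differed by -2.15 (limma adjusted p = 6.76e-05), beside -1.28 in wild-type LMPP. Its E2A-KO values of 4.12 and 3.84 lie in the compressed low range, so the size of its fold change is uncertain. Tnfaip3 differed by -1.69 (limma adjusted p = 6.52e-05), or 3.23-fold, beside -0.64 in wild-type LMPP. Egr1 differed by -1.50 beside -0.93, Klf6 by -1.09 beside -0.65, and Btg1 by -1.14 beside -0.63. The differences between these pairs are the changes of the first comparison, of which those of Hspa1b and Tnfaip3 passed. Dusp1 (-1.37), Klf10 (-0.96), Nfkbia (-0.97), Gadd45a (-0.56) and Hspa1a (-0.39) were lower in E2A-KO LMPP as well. Ier2 (-0.99), Ier3 (-0.59) and Sgk1 (-0.58) were also lower, with values nearer 0 than in wild-type LMPP; these gaps are the changes of 0.45, 0.43 and 0.23 above, which did not pass. The calls of Ier2, Ier3, Sgk1 and Gadd45a against LSK FLT3- cells were each lost in 4 alternatives, namely quantile normalization, 1 E2A-KO array left out and either LSK FLT3- array left out; Ier3 came nearest to 0, at -0.13 (limma adjusted p = 0.651). The Hspa1a call was lost in 6, among them the removal of any 1 of the 4 arrays.

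Rhob was above LSK FLT3- cells in wild-type LMPP, by 0.63, and below them in E2A-KO LMPP, by -0.70 (SE 0.13, limma adjusted p = 0.00379). This last call was lost with quantile normalization and without LSK FLT3- replicate 2. Klf4 and Btg2, which were above LSK FLT3- cells in wild-type LMPP, were -0.23 and 0.03 from them in E2A-KO LMPP, short of the threshold. Fos (-0.80, limma adjusted p = 0.0102), Jund (-0.67, limma adjusted p = 0.00807), Csrnp1 (-0.46) and Gadd45b (-0.59) passed here, and none of these 4 calls held without LSK FLT3- replicate 2. Fos was lost also without E2A-KO replicate 1, and Jund with quantile normalization and with the mean of its probe sets, where its change was nearest 0 at -0.21. Csrnp1 and Gadd45b were each lost in 6 of the 13 alternatives: quantile normalization (where Csrnp1 differed by -0.0061), the mean of probe sets and the removal of any 1 of the 4 arrays compared. Egr3 (0.52), Nr4a1 (0.82), Nr4a2 (0.77) and Klf2 (0.47) were the genes above LSK FLT3- cells. Klf2 lost its call in 7 of the 13 alternatives and Egr3 in 6, among them quantile normalization, median centring and the removal of either LSK FLT3- array. Nr4a1 lost its call without either LSK FLT3- array and Nr4a2 without replicate 1. The Nr4a2 value turned to -0.08 with the mean of its probe sets, another of which differed by -1.07 (limma adjusted p = 0.0383 over all probe sets).

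The group means can be ordered for each gene, as a description without a test. E2A-KO LMPP had the lowest mean for 22 of the 38 genes (57.9%), against 32.2% of all genes, and LSK FLT3- cells for 6 (15.8%), against 42.0%. For 12 genes (31.6%, against 24.9% of all genes) the mean stepped down from LSK FLT3- to wild-type LMPP to E2A-KO LMPP: Btg1, Csrnp1, Dusp1, Egr1, Fos, Gadd45b, Hspa1b, Klf10, Klf6, Nfkbia, Ppp1r15a and Tnfaip3. For 10 genes (26.3%, against 7.24%) wild-type LMPP was highest and E2A-KO LMPP lowest: Atf3, Dusp2, Dusp5, Dusp6, Ier5, Jun, Jund, Klf4, Rhob and Socs3. Of these 10, only Rhob had groups that did not overlap and passed in all 3 comparisons. The reverse step, upward to E2A-KO LMPP, was found for Egr3, Nr4a1 and Nr4a2 (7.89%, against 21.4%).

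**Figure D5:**
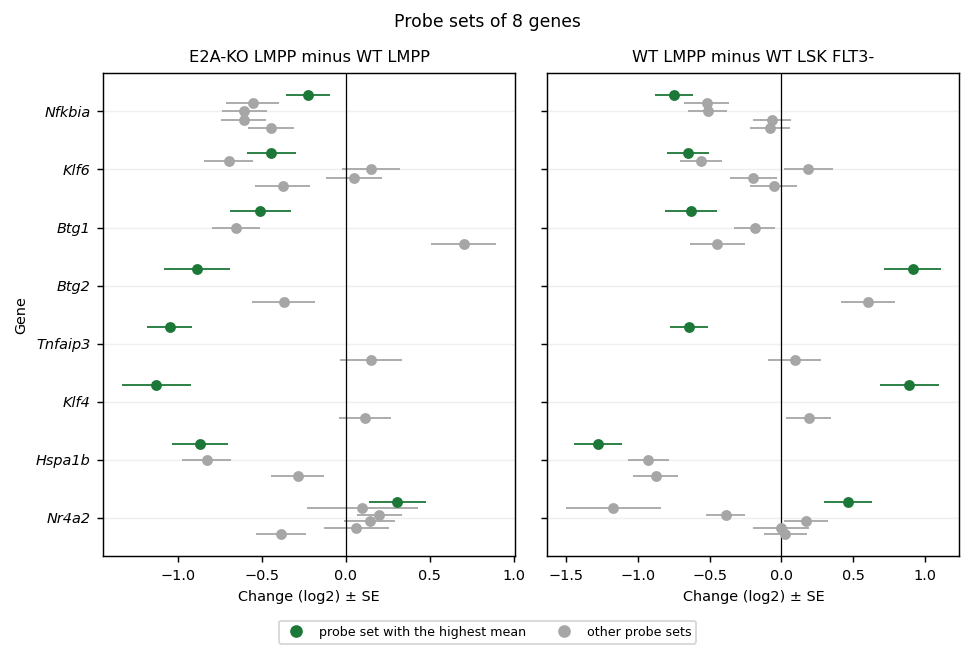
Every probe set of 8 genes is shown as its change (horizontal axis, log2, with the SE as a bar) between E2A-KO and wild-type LMPP on the left and wild-type LMPP and LSK FLT3- cells on the right; green marks the probe set with the highest mean. All 5 Nfkbia probe sets lie below 0 on the left, from -0.61 to -0.22, while those of Klf4 and Tnfaip3 differ in sign.

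Relatives and upstream regulators were read from lists of genes by role. Between the LMPP genotypes, where 0.995% of all genes were lower and 0.379% higher (8.76% and 5.89% at an unadjusted p under 0.05), Klf3, a repressor of the KLF family, fell from 9.36 and 9.48 in wild-type to 8.24 and 8.11 in E2A-KO LMPP, by 1.24 (SE 0.14, limma adjusted p = 0.00403). Klf9 rose from 7.27 and 7.27 to 8.06 and 8.38, by 0.95 (SE 0.14, limma adjusted p = 0.0168). They were the only calls among 14 other EGR, NR4A and KLF genes measured. Jdp2, a repressor of AP-1, fell by 0.71 (limma adjusted p = 0.0342), 1 of 16 other AP-1, ATF and MAF genes. Ddit4, an inhibitor of mTOR induced by stress, fell by 1.10 (limma adjusted p = 0.0215), 1 of 18 p53 and damage genes. Socs2, a STAT5 target that limits cytokine signalling, fell by 0.79 (limma adjusted p = 0.0248), 1 of 23 genes of mRNA decay, BTG and SOCS families. Limma called 0 of 15 genes of the ERK cascade with SRF and CREB (1 lower and 0 higher at an unadjusted p under 0.05), 0 of 17 DUSP and Sprouty family genes (1 lower, 2 higher) and 0 of 17 NF-kB genes (1 lower, 1 higher).

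Between wild-type LMPP and LSK FLT3- cells 23.7% of all genes were lower and 10.4% higher, and the counts of the same lists stand beside these shares. Of the AP-1, ATF and MAF genes 8 of 16 fell and 0 rose (2 higher at an unadjusted p under 0.05), led by Maf (-1.80), Fosl2 (-1.64) and Atf7 (-0.92). Of the 14 other EGR, NR4A and KLF genes, 6 fell and 4 rose, with Klf12 (-2.46), Klf1 (-2.04) and Klf9 (-1.99) changing most. Heat shock factors and chaperones fell in 8 of 17 and rose in 0 (0 higher at an unadjusted p under 0.05), led by the HSP90 cochaperone Stip1 (-1.45), Dnajb4 (-1.41) and St13 (-0.73). The DUSP and Sprouty list had 7 lower and 1 higher of 17, led by Dusp19 (-1.03), Dusp16 (-0.93) and Spry1 (-0.91). The ERK list had 5 lower and 2 higher of 15, led by the ERK kinase gene Map2k1 (-0.85), the SRF partner Elk1 (0.63) and Rps6ka3 (-0.55). Of the p53 and damage genes 7 of 18 fell and 0 rose (0 higher at an unadjusted p under 0.05), led by Trib3 (-1.12) and the damage kinases Atm (-0.77) and Atr (-0.68). The mRNA decay, BTG and SOCS list, which also holds MYC relatives, had 14 lower and 2 higher of 23, led by Mycn (-1.88), Socs6 (-1.25) and Socs2 (-1.23). The balance of directions depended on the scaling. With quantile normalization 10.1% of all genes were lower and 9.10% higher. Then 4 AP-1 genes fell and 1 rose, 4 fell and 4 rose among the EGR, NR4A and KLF genes, and 3 chaperones fell. In the DUSP and Sprouty list 2 fell and 1 rose, and in the ERK list 1 fell and 3 rose. Among the p53 and damage genes 1 fell and 1 rose, and in the mRNA decay list 6 fell and 2 rose.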

How the data were processed

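Sorted bone marrow RNA was labelled after 2 rounds of amplification and hybridized to 3' expression arrays, per the labels' protocols. The deposited values are linear probe set intensity values from RMA, as stated per the submitters' processing notes; the version is not given. Log2 was taken. Of 45101 probe sets, 34958 had 1 symbol in the platform annotation, 932 several and 9211 none; only the first were used to name genes.

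Limma 3.58.1 in R 4.3.3 fitted 1 mean per group on all 6 arrays (3 residual and 5.8 prior degrees of freedom), two-sided; the script was tested on simulated data. The genes and lists were chosen with earlier results of these data known. Full values were given for genes past the threshold between the LMPP genotypes or among the 10 largest rises and falls past it between the wild-type groups, and up to 3 genes were named per list. Array values of Jund, Dusp6, Hspa1a, Myc, Ppp1r15a, another Nr4a2 probe set, Klf3 and Klf9 were added after they were seen. The motifs were also chosen after results were known. Arrays have no read depth; their number limits the precision. Alternatives changed the probe set, filter, scaling, variance model and arrays used. Figures were drawn with matplotlib 3.10.9.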

Additional observations from a re-analysis of the deposited data

How the results depend on the processing

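The replicate numbers in the titles did not pair the arrays: deviations from the group means correlated at 0.02, -0.02 and -0.04 between the groups. With the replicate number as a block, 4 genes were lower and 0 higher in E2A-KO against wild-type LMPP, 14 and 5 in LMPP against LSK FLT3-, and 17 and 3 in E2A-KO LMPP against LSK FLT3-. The count of 4 lower genes in E2A-KO LMPP was 2 with only the 4 arrays compared, 7 with a variance trend, and 2 to 3 without single arrays. For LMPP against LSK FLT3-, the 5 higher genes were 8 with quantile normalization and 1 to 6 without single arrays, and the 14 lower genes 8 to 14 without single arrays. For E2A-KO LMPP against LSK FLT3-, the 4 higher genes were 2 with the mean of all probe sets, 2 with median centring and 0 to 4 without single arrays; the 18 lower genes were 11 with quantile normalization and 8 to 18 without single arrays. Median centring moved the median of all genes by -0.11 and -0.14 in the comparisons with LSK FLT3-. The share of all genes called moved with the setting too. For LMPP against LSK FLT3-, 9.10% were higher with quantile normalization, beside 10.4%. For E2A-KO LMPP against LSK FLT3-, 5.79% were higher with median centring, beside 11%, and 11.1% lower with quantile normalization, beside 26.5%. The other counts above are given without this share, so a moved count need not be particular to the 38 genes. Of the called genes, 1 of 4 (Rhob), 7 of 19 and 8 of 22 kept their call in all 13 alternatives. One called value turned its sign: Nr4a2 in E2A-KO LMPP against LSK FLT3- was -0.0768 with the mean of its probe sets. Over all 38 genes and 3 comparisons, 30 changes that had not passed turned their sign in at least 1 alternative, 8 between the LMPP genotypes (among them Fosb and Junb), 11 between the wild-type groups and 11 between E2A-KO LMPP and LSK FLT3-. Values are given for those among the 64 gene changes recomputed singly. Between the LMPP genotypes these were Nr4a1, from -0.0484 without E2A-KO replicate 2 to 0.533 without replicate 1, Klf10, 0.0268 with quantile normalization and from -0.174 to 0.0689 without wild-type LMPP replicate 1 or 2, and Sgk1, from -0.0604 without E2A-KO replicate 1 to 0.523 without replicate 2. Between wild-type groups Jund was -0.0380 with the mean of probe sets, -0.0658 with median centring, and from -0.107 to 0.188 without single arrays. Against LSK FLT3-, E2A-KO Klf4 was 0.0366 with the mean of probe sets and from -0.532 to 0.0643 without single arrays, Btg2 was -0.106 with median centring and from -0.0580 to 0.120 without single arrays, and Dusp6 was 0.169 with quantile normalization. The causes of these shifts were not tested. With 2 arrays a group, removing 1 leaves a lone array assumed to vary like the others.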

Other observations

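The spread between replicate arrays of these genes was close to that of all genes: the median absolute difference between the 2 arrays of a group was 0.17 for the 38 genes and 0.18 for all genes in wild-type LMPP, 0.15 and 0.17 in E2A-KO LMPP, and 0.12 and 0.11 in LSK FLT3- cells. Replicates were more than 0.5 apart for 3 genes in wild-type LMPP (Junb, Ier2 and Btg2), 5 in E2A-KO LMPP (Nr4a1, Klf4, Sgk1, Ier2 and Btg1) and 1 in LSK FLT3- cells (Ppp1r15a).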
